A study of Mus musculus with 20 samples.

Results

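The 40 genes described here encode the steps by which macrophages take up glucose, break it down to pyruvate, turn pyruvate into lactate or move it into mitochondria, and oxidise it in the pyruvate dehydrogenase (PDH) complex. They were chosen by gene symbol, 40 of the 56748 genes in each of 2 RNA-seq count tables, and fall into glucose transporters, hexokinases, upper and lower glycolytic enzymes, enzymes of fructose 2,6-bisphosphate, lactate genes, the mitochondrial pyruvate carrier, the 5 PDH subunits, the 4 PDH kinases and the 2 PDH phosphatases. Of the 40 genes, 38 had the 10 reads in total needed for testing in both experiments, while Ldhb and Pdk4 had at most 1 read in any library. The iNOS experiment held 12 libraries labelled as bone marrow-derived macrophages (BMDM) from wildtype (WT) C57BL/6J mice or mice with a germline knockout of iNOS (iNOS KO), unstimulated or given 50 ng/mL LPS with 30 ng/mL IFNγ for 48 h, with 3 libraries per group. The study's text, however, describes the iNOS RNA-seq as done in RAW264.7 cells, so the cell source of these libraries is uncertain. If the BMDM label holds, the iNOS KO mice (B6.129P2-Nos2tm1Lau/J) carry the defect in every cell from birth. For both genotypes marrow of males or females, aged 6 to 12 weeks per the labels, was then grown in M-CSF. The study's methods give a somewhat narrower age range and say that marrow was pooled by genotype. The Akr1a1 experiment held 8 libraries of RAW264.7, a mouse macrophage line, WT or with a CRISPR knockout of Akr1a1 grown from single cells, unstimulated or given 50 ng/mL LPS with 10 ng/mL IFNγ for 48 h, with 2 libraries per group, each from a separate clone as the study's methods describe them. With marrow pooled, the 3 BMDM libraries of a group are not stated to be separate animals, so the p-values measure the spread between these libraries, which may be technical.

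Glycolysis splits glucose into pyruvate in the cytosol, and its flux is set mainly at glucose uptake, at hexokinase and at phosphofructokinase, which fructose 2,6-bisphosphate activates. Pyruvate then either becomes lactate, which leaves through monocarboxylate transporters, or enters mitochondria through the MPC1/MPC2 carrier, where the PDH complex makes acetyl-CoA. PDH kinases switch the complex off by phosphorylating its E1 alpha subunit and PDH phosphatases switch it on again. Classically activated macrophages are known for high glucose uptake and lactate output, and iNOS is the enzyme that gives them nitric oxide. Akr1a1 encodes an aldo-keto reductase that can reduce S-nitroso-CoA.

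Many glycolytic genes are known targets of hypoxia-inducible factors, which bind DNA at the letters ACGTG or GCGTG. The promoters below were picked after values were seen, to show members of several roles that lay more than 2-fold lower (Slc2a1, Hk2, Pfkfb3, Eno2, Pgk1, Pdk1) or higher (Pdk3, Pdp2) in stimulated iNOS KO than WT cells, and Ldha with the most matches of those printed. Each is printed from 250 bases before to 50 after the RefSeq start (build GRCm38.p6), on the gene's own strand and in lower case. Capitals mark ACGTG or GCGTG on either strand, so that CACGT and CACGC are their reverse forms, and CACGTG counts as 2 overlapping matches. Where a gene has several promoters, the one with the most matches is shown.
Slc2a1: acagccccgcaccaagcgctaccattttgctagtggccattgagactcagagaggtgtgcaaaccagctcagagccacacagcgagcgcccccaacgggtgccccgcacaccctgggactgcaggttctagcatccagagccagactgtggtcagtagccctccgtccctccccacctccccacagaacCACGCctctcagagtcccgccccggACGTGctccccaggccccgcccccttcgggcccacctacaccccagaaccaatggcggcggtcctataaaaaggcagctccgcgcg
Hk2: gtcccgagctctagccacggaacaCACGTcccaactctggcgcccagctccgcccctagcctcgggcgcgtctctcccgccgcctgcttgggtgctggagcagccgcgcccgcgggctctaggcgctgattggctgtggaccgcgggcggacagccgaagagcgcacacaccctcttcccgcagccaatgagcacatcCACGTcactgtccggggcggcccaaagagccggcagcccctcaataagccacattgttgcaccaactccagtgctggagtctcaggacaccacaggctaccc
Pfkfb3: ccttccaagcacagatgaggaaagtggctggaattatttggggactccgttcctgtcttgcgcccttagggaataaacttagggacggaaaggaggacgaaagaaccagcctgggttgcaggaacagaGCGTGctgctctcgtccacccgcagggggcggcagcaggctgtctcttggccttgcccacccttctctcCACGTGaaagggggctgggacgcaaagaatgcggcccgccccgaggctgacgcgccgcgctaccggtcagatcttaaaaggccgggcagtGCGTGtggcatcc
Eno2: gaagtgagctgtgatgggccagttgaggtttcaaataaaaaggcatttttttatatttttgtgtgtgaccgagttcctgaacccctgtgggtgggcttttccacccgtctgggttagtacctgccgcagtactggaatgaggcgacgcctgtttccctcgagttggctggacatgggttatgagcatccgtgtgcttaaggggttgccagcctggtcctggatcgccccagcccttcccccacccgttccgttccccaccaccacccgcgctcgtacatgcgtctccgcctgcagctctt
Pgk1: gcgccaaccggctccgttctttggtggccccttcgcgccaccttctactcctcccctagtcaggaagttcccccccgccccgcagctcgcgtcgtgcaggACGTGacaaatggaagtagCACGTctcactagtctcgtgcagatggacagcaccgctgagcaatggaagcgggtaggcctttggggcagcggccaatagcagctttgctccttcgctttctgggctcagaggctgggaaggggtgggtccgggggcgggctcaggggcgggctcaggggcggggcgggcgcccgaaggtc
Pdk1: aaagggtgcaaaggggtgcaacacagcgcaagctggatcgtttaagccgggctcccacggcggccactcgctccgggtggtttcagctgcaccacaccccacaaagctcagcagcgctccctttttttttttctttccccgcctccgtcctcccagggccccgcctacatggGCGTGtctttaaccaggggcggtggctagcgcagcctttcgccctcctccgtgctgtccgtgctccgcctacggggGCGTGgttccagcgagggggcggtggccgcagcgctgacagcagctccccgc
Ldha: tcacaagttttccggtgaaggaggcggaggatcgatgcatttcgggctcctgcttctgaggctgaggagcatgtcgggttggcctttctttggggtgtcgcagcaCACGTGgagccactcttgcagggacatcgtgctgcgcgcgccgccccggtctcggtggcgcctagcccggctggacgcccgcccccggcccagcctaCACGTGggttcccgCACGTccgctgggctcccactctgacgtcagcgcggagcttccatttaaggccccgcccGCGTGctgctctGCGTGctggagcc
Pdk3: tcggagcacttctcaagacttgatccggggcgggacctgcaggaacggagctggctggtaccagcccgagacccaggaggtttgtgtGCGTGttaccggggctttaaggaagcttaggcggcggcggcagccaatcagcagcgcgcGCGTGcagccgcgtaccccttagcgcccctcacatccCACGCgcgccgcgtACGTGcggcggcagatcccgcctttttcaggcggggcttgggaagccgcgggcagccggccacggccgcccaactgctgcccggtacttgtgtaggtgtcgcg
Pdp2: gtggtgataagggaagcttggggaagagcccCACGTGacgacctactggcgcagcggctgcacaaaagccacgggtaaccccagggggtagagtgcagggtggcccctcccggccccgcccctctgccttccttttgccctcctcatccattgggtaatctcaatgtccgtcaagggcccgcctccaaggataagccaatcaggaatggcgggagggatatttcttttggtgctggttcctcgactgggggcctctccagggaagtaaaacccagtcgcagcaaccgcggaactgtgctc
The 2 matches in Slc2a1 (chr4:119108495-119108794), Hk2 (chr6:82774405-82774704), Pgk1 (chrX:106186850-106187149) and Pdk1 (chr2:71872974-71873273) compare with 4 in Pfkfb3 (chr2:11502041-11502340) and 7 in Ldha (chr7:46845554-46845853). Of the 2 printed promoters whose genes lay higher in stimulated iNOS KO cells, Pdk3 (chrX:93832101-93832400) held 4 matches and Pdp2 (chr8:104591222-104591521) held 2. Slc16a1, also more than 2-fold higher but not printed, held 5. Pfkl and Pdk2, more than 2-fold lower and not printed, held 1 and 2, for Pdk2 in the promoter with the most matches. No match was in the window of Eno2 (chr6:124769624-124769923), although Eno2 was among the members that moved most. Over the 38 members with a promoter in RefSeq, 42 of 55 promoters held a match (76.4%), against 14380 of all 32851 mouse promoters of the same length (43.8%). Counted by gene, 32 of the 38 members had a match in any of their promoters. The share by gene was not computed over all genes, and a gene with several promoters has more windows that can hold a match. The count by gene therefore cannot be set against the 43.8% of promoters. Of the 8 members more than 2-fold lower in stimulated iNOS KO cells 7 had a match, and of the 3 more than 2-fold higher all 3 had one. These counts are near the share of all members. The matches are letters in a window and not measured binding sites, and base composition was not matched between members and other promoters.

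Libraries held 15072109 to 18878107 reads assigned to genes in the iNOS experiment and 11876719 to 44583327 in the Akr1a1 experiment. Levels are given as CPM, the read count of a gene scaled to a common library total with edgeR's TMM factors. Nos2, the gene of iNOS, was at 10370, 11533 and 11312 CPM in the 3 stimulated WT libraries of the iNOS experiment and at 870, 891 and 912 CPM in the 3 stimulated iNOS KO libraries, with no read in unstimulated iNOS KO cells. Akr1a1 was at 427 and 488 CPM in unstimulated and 576 and 675 CPM in stimulated WT cells of the Akr1a1 experiment, against 206 and 21.8 CPM and 370 and 212 CPM in the libraries labelled Akr1a1 KO. Those KO libraries all lay below the WT libraries of their state, but Akr1a1 was not absent and its difference did not pass the test (log2 fold change −2.01 ± 0.80, SE, unstimulated, adjusted p = 0.56, and −1.10 ± 0.77 stimulated, adjusted p = 0.64). Macrophage markers (10 genes) moved with the groups compared. In BMDM-labelled libraries they summed to 8339 to 8689 CPM in unstimulated and 8154 to 9140 CPM in stimulated WT cells, against 5894 to 6303 CPM and 12731 to 13566 CPM in iNOS KO cells, with 6 of 10 lower in unstimulated iNOS KO than WT cells and 4 higher and 3 lower after stimulation. In RAW264.7 libraries they summed to 4501 to 5037 CPM and 12230 to 12440 CPM in WT and to 3420 to 3623 CPM and 5294 to 9240 CPM in Akr1a1 KO cells, in the same order. The summed lymphocyte markers stayed at or below 0.693 CPM in BMDM-labelled libraries. Neutrophil markers (9 genes) summed to 0.433 to 1.17 CPM in unstimulated BMDM-labelled libraries, and to 35.7 to 62.1 CPM in stimulated WT and 38.5 to 44.3 CPM in stimulated iNOS KO libraries, mostly through S100a8, with Ly6g at 0 throughout. In RAW264.7 cells they summed to 0.218 to 0.666 CPM in unstimulated libraries, 121 to 145 CPM in stimulated WT and 248 to 420 CPM in stimulated Akr1a1 KO libraries. Fibroblast markers (7 genes) summed to 11.3 to 16.6 CPM in stimulated iNOS KO cells against 3.65 to 4.92 CPM in stimulated WT cells. The part of these 3 marker lists in the results was not tested. Pycard, which RAW264.7 cells are known to lack, had 0 to 12 reads in the BMDM-labelled libraries and 1 to 15 in RAW264.7 libraries, and the study's text describes the iNOS data as RAW264.7, so the cell source of the 12 libraries is uncertain. For RAW264.7 unstimulated replicate B of both genotypes the title says stimulated, whereas the treatment field and library name say unstimulated, which is the grouping used.

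Stimulation of WT cells in the iNOS experiment raised most of the glycolytic list and lowered most of the PDH list. The highest rises were 10.1-fold for Pfkfb3, which makes the fructose 2,6-bisphosphate that activates phosphofructokinase, 7.88-fold for the enolase Eno2 and 7.46-fold for the glucose transporter Slc2a1. The deepest falls were 6.88-fold for the PDH phosphatase Pdp2, 3.17-fold for the PDH kinase Pdk3 and 2.72-fold for the lactate and pyruvate transporter Slc16a1. Of the 38 tested members, 19 were higher and 11 lower at an adjusted p under 0.05, where 32.4% of the 18691 genes tested were higher and 28.5% lower. The members' median log2 fold change was 0.53, against 0.07 over all genes tested. Scaling by total counts without TMM moved the median of all genes to −0.39, that of the members to 0.07 and the members' split to 17 higher and 17 lower.

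In stimulated cells the iNOS KO libraries held lower levels of most glycolytic members and higher levels of several PDH members than WT. Pfkfb3 was 5.64-fold lower, Pdk2 3.64-fold, Eno2 3.22-fold, Hk2 3.10-fold, Slc2a1 2.56-fold, Pdk1 2.41-fold, Pgk1 2.12-fold and Pfkl 2.01-fold lower. Pdk3 was 3.24-fold, Pdp2 3.10-fold and Slc16a1 2.31-fold higher. In all, 10 members were higher and 22 lower, where 24.2% of genes tested were higher and 24.2% lower, and 6 did not pass the test. With the study's further limit of 2-fold, 3 members were higher and 8 lower, against 10.7% and 8.87% of all genes. Pfkl was the member just inside that limit, at 2.01-fold, and Tpi1 the next outside it at 1.73-fold. The median log2 fold change of the members was −0.41, against −0.04 over all genes tested.

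Without stimulation the 2 genotypes were much closer. Of the 38 members 0 lay above WT and 2 below in iNOS KO cells, Slc2a6 and Gapdh, where 1.88% of genes tested were higher and 4.09% lower. The count was 10 without stimulated iNOS KO replicate B, which enters through the shared dispersion, and 1 without unstimulated WT replicate A or C or any unstimulated iNOS KO replicate. At an unadjusted p under 0.05 there were 10. Stimulation of iNOS KO cells raised 19 members and lowered 12, where 27.3% of genes tested rose and 24.6% fell, with a median of 0.16 against 0.00 over all genes. That median was 0.06 without stimulated iNOS KO replicate B and 0.04 with no filter on low counts. With total counts it turned to −0.26, with a median of all genes of −0.41 and a split of 10 higher and 21 lower. The response to stimulation itself differed between genotypes for 26 members, 9 with a more positive and 17 with a more negative change in iNOS KO cells, where the shares over all genes were 20% and 15.4%. These comparisons share libraries, so their values are set side by side below and not related to each other. All are from bulk RNA, in which fewer cells of a kind and less RNA per cell cannot be told apart.

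**Figure D1:**
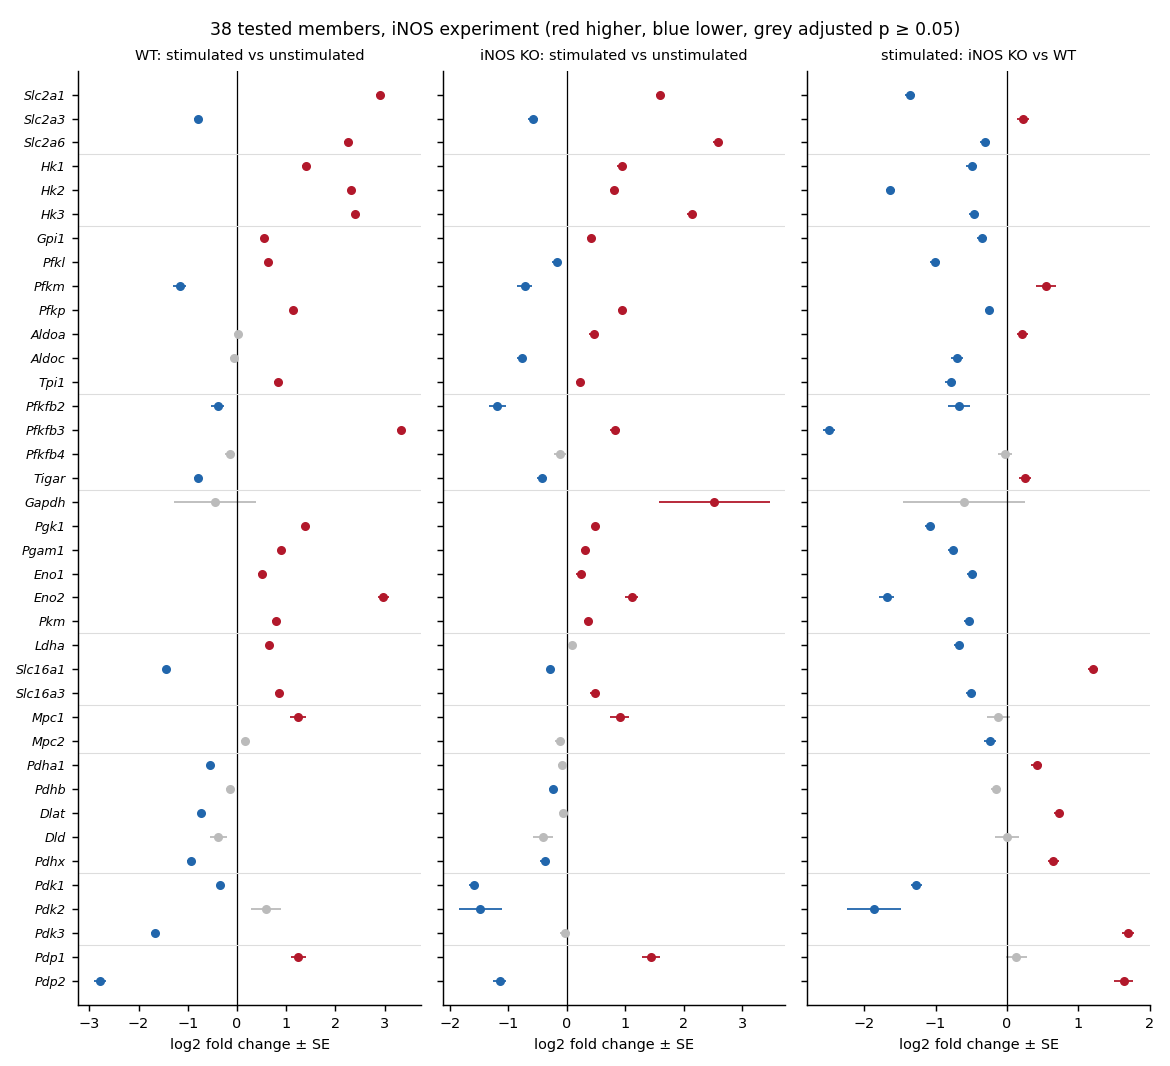
Log2 fold changes (x axis, with bars of 1 standard error) of the tested members (y axis, grouped by role) in the iNOS experiment, for stimulation in each genotype and for iNOS KO against WT in stimulated cells, 3 libraries per group, with red for higher, blue for lower and grey where the adjusted p was 0.05 or more. Pfkfb3 stands at the extreme of both the WT stimulation response (3.34) and the genotype difference (−2.50), and Pdk3, Pdp2 and Slc16a1 run the opposite way to most glycolytic genes.

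Among the glucose transporters, Slc2a1 (GLUT1), the basal transporter of most cells, was at 221, 208 and 221 CPM in unstimulated WT cells and 1547, 1620 and 1684 CPM in stimulated WT cells. In iNOS KO cells it was at 201, 223 and 204 CPM unstimulated and 588, 669 and 634 CPM stimulated. The 4 groups thus fell into 3 ranges, with unstimulated libraries lowest, stimulated iNOS KO between and stimulated WT highest. The log2 fold change with stimulation was 2.90 ± 0.07 in WT (adjusted p = 9.5e-16) and 1.59 in iNOS KO, and the genotype difference in stimulated cells was −1.36 ± 0.06 (adjusted p = 2.7e-11). Slc2a6 (GLUT6), a lysosomal transporter that inflammatory stimuli induce, was at 95.1, 95.2 and 99.0 CPM in unstimulated and 444, 463 and 467 CPM in stimulated WT cells. It was at 59.0, 65.6 and 61.5 CPM in unstimulated and 343, 418 and 351 CPM in stimulated iNOS KO cells. All iNOS KO libraries were below all WT libraries of their state, and Slc2a6 was the single member besides Gapdh that was lower before stimulation (−0.64 ± 0.08, adjusted p = 3.8e-05). Its stimulation response was 2.25 in WT and 2.58 in iNOS KO. Slc2a3 (GLUT3), a high-affinity transporter, fell with stimulation in WT (log2 fold change −0.79) and iNOS KO (−0.57). It was slightly higher in stimulated iNOS KO than WT (0.23, adjusted p = 0.040), a call lost when any of 8 of the 12 libraries was left out.

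Hexokinases trap glucose in the cell as glucose 6-phosphate, and all 3 rose with stimulation in both genotypes and were lower in iNOS KO than in WT cells once stimulated. Hk2, the inducible mitochondria-bound form, was at 100, 113 and 111 CPM in unstimulated and 509, 546 and 555 CPM in stimulated WT cells, and at 99.3, 97.9 and 99.4 CPM in unstimulated and 176, 174 and 170 CPM in stimulated iNOS KO cells. Its response was 2.31 ± 0.06 in WT (adjusted p = 6.4e-15) and 0.81 in iNOS KO. The genotype difference in stimulated cells was −1.63 ± 0.06 (adjusted p = 1.9e-12). The ranges of the stimulated genotypes were far apart for Hk2. Hk1, the widely expressed form, went from 191, 186 and 197 CPM to 477, 529 and 513 CPM in WT and from 173, 200 and 191 CPM to 343, 407 and 331 CPM in iNOS KO. Hk3, the form of myeloid cells, went from 280, 262 and 282 CPM to 1377, 1492 and 1499 CPM in WT and from 226, 252 and 242 CPM to 998, 1176 and 989 CPM in iNOS KO. The genotype differences of Hk1 (−0.49) and Hk3 (−0.47) after stimulation were smaller than that of Hk2. For Hk3 the difference between the stimulation responses was −0.27, a call lost without any of 9 of the 12 libraries.

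**Figure D2:**
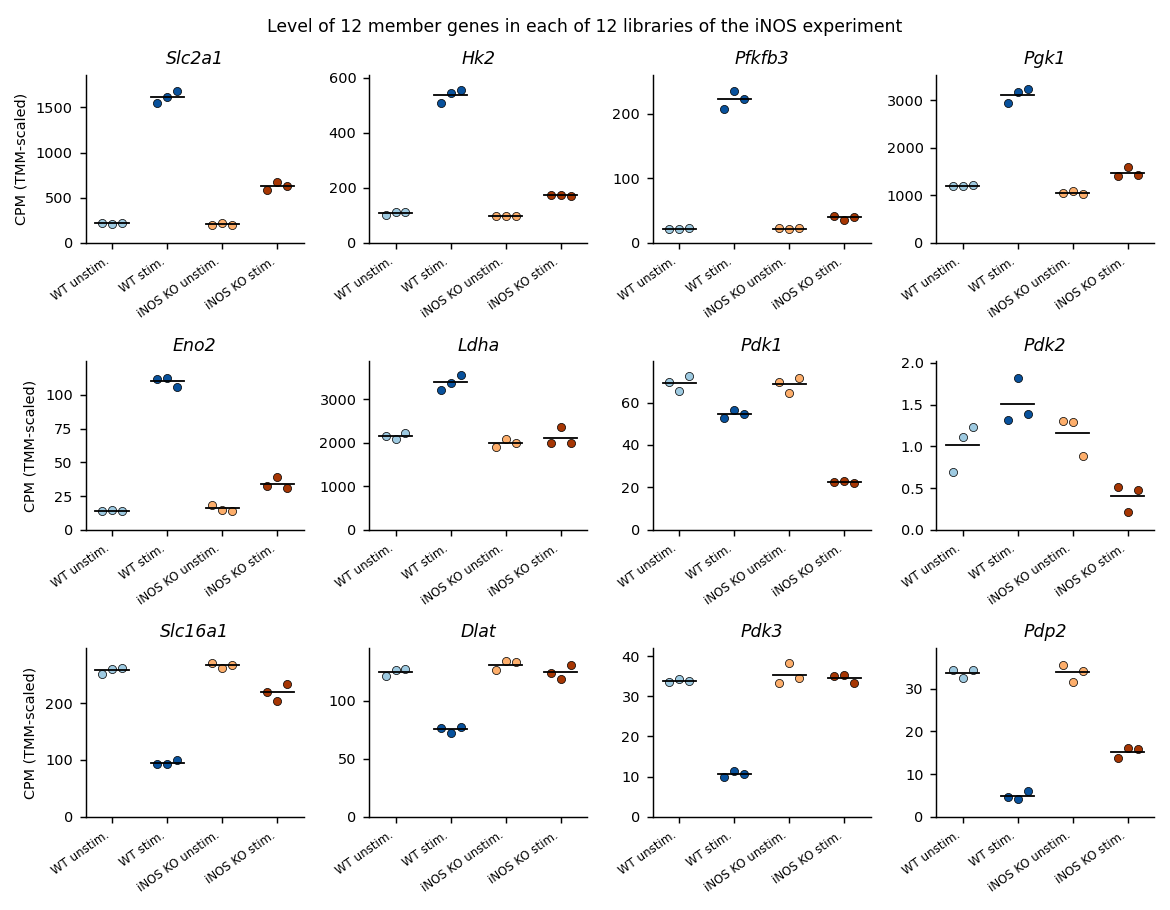
Levels of 12 members in the 12 libraries of the iNOS experiment (y axis, CPM from 0; x axis, the 4 groups), each point a library and each horizontal bar the mean of 3. Slc2a1, Hk2, Pfkfb3, Eno2 and Pgk1 are highest in stimulated WT cells, whereas Slc16a1, Pdk3 and Pdp2 are lowest there.

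Of the upper glycolytic enzymes, the phosphofructokinase isozymes moved apart. Pfkl, the liver-type subunit, was at 239, 231 and 241 CPM in unstimulated and 349, 373 and 378 CPM in stimulated WT cells. It was at 200, 215 and 205 CPM in unstimulated and 173, 204 and 171 CPM in stimulated iNOS KO cells. Pfkl rose in WT (0.63), and stimulated iNOS KO libraries did not overlap with stimulated WT ones (2.01-fold lower, SE 0.07 on the log2 scale, adjusted p = 3.5e-09). The change in iNOS KO was −0.18 (adjusted p = 0.045), which failed the test without any of 10 of the 12 libraries. Pfkp, the platelet-type subunit, was at 240, 243 and 246 CPM in unstimulated and 511, 539 and 564 CPM in stimulated WT cells, and at 237, 241 and 228 CPM and 442, 470 and 440 CPM in iNOS KO cells. Its rise was 1.15 in WT and 0.94 in iNOS KO, with a genotype difference of −0.26 after stimulation. Pfkm, the muscle-type subunit, went the other way, from 24.9, 20.9 and 25.7 CPM to 10.0, 10.7 and 11.2 CPM in WT and from 23.3, 27.6 and 25.9 CPM to 12.9, 19.0 and 14.6 CPM in iNOS KO. Its stimulated iNOS KO libraries lay above the WT ones (0.54). Gpi1, which isomerises glucose 6-phosphate, and the triose phosphate isomerase gene Tpi1 rose in both genotypes (0.56 and 0.83 in WT, 0.41 and 0.22 in iNOS KO). With total counts in place of TMM, the iNOS KO changes of both turned negative. Gpi1 and Tpi1 were lower in stimulated iNOS KO than WT cells (−0.35 and −0.79). Aldolase genes differed, since Aldoa rose in iNOS KO (0.46) but did not pass the test in WT (0.02), and Aldoc fell in iNOS KO (−0.78) but did not pass it in WT (−0.06). After stimulation Aldoa was higher in iNOS KO than WT (0.22) and Aldoc lower (−0.70). The Aldoa difference failed the test without any of 3 libraries.

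Pfkfb enzymes both make and remove fructose 2,6-bisphosphate, and Pfkfb3 is the form with the highest kinase activity. Pfkfb3 was at 20.9, 22.0 and 23.0 CPM in unstimulated and 208, 235 and 223 CPM in stimulated WT cells. In iNOS KO cells it was at 23.1, 21.0 and 22.4 CPM unstimulated and 42.3, 35.3 and 40.5 CPM stimulated. The unstimulated ranges overlapped and both genotypes rose, but every stimulated iNOS KO library lay far below the lowest stimulated WT one. The log2 fold changes were 3.34 ± 0.09 in WT (adjusted p = 2.4e-15) and 0.83 in iNOS KO, with a genotype difference of −2.50 ± 0.08 (adjusted p = 2.8e-13), the largest genotype difference of any member in stimulated cells. Pfkfb2 was low throughout, at 10.4, 10.6 and 9.69 CPM in unstimulated WT, 7.69, 9.25 and 6.45 CPM in stimulated WT, 11.3, 11 and 11.3 CPM in unstimulated iNOS KO and 5.91, 4.61 and 4.18 CPM in stimulated iNOS KO cells. It fell in WT (−0.39, lost without any of 4 libraries) and in iNOS KO (−1.19). Pfkfb4 passed the test in none of these comparisons (−0.14 and −0.11 with stimulation). Tigar, which removes fructose 2,6-bisphosphate, fell in WT (−0.79) and iNOS KO (−0.43), and its higher level in stimulated iNOS KO cells (0.25) failed the test without any of 4 libraries.

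Lower glycolytic enzymes turn triose phosphates into pyruvate with a yield of ATP. Pgk1, the first ATP-yielding enzyme, was at 1188, 1187 and 1226 CPM in unstimulated and 2936, 3163 and 3229 CPM in stimulated WT cells, and at 1043, 1081 and 1035 CPM and 1402, 1590 and 1417 CPM in iNOS KO cells. Its response was 1.37 ± 0.06 in WT and 0.48 in iNOS KO, with a difference of −1.08 ± 0.06 in stimulated cells (adjusted p = 1.7e-10). Eno2, the enolase first known from neurons, was at 13.6, 14.6 and 13.7 CPM in unstimulated and 112, 113 and 106 CPM in stimulated WT cells. In iNOS KO cells Eno2 was at 18.5, 14.9 and 14.1 CPM unstimulated and 32.6, 39.2 and 31.1 CPM stimulated. As for Pfkfb3, the unstimulated ranges of Eno2 overlapped and the stimulated ones were far apart (−1.69 ± 0.10, adjusted p = 4.7e-10). Pgam1, Eno1 and the pyruvate kinase gene Pkm rose in WT by 0.89, 0.50 and 0.79 and in iNOS KO by 0.31, 0.24 and 0.37. With total counts in place of TMM, the iNOS KO changes of these genes turned negative. Pgam1, Eno1 and Pkm were lower in stimulated iNOS KO than WT cells (−0.76, −0.49 and −0.54). The 2 splice forms of Pkm are 1 gene in the table and cannot be told apart.

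Gapdh, the textbook housekeeping member, gave erratic values. Its libraries were at 234, 28.1 and 202 CPM in unstimulated WT, 31.3, 275 and 32.9 CPM in stimulated WT, 12.1, 14.3 and 12.5 CPM in unstimulated iNOS KO and 13.1, 175 and 37.1 CPM in stimulated iNOS KO cells. In 3 of the 4 groups the libraries thus differed widely among themselves. The 17681 Gapdh reads of all 12 libraries together are few for a gene of this kind, which has many processed pseudogenes in the mouse genome, and how the counting treated reads shared with them is not given in the sources used here. Its calls in unstimulated iNOS KO against WT (−3.58 ± 0.96, adjusted p = 0.036) and in stimulation of iNOS KO (2.52 ± 0.95, adjusted p = 0.035) failed without any of 5 and 4 libraries, and the latter with the replicate letter as a block (2.02, adjusted p = 0.069). Eno1 also shares sequence with a copy named Eno1b, which held 132619 reads in these libraries, 37.6% as many as Eno1. Mpc1-ps, a copy of Mpc1, held 3792 reads against 1651 for Mpc1 itself. The values of Eno1 and Mpc1 are uncertain to that extent.

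Ldha turns pyruvate into lactate, and with Ldhb untested it stood for lactate dehydrogenase alone. It was at 2152, 2077 and 2230 CPM in unstimulated and 3216, 3373 and 3563 CPM in stimulated WT cells. In iNOS KO cells it was at 1891, 2093 and 1988 CPM unstimulated and 2000, 2359 and 1984 CPM stimulated. The WT ranges were apart and the iNOS KO ranges overlapped. Ldha rose by 0.65 ± 0.07 in WT, changed by 0.09 in iNOS KO (adjusted p = 0.32) and was lower in stimulated iNOS KO than WT cells (−0.68 ± 0.07, adjusted p = 3.8e-07). The 2 monocarboxylate transporters moved in opposite directions. Slc16a3 (MCT4), the lactate exporter of glycolytic cells, went from 360, 350 and 371 CPM to 610, 661 and 680 CPM in WT and from 313, 348 and 328 CPM to 428, 517 and 431 CPM in iNOS KO. Slc16a1 (MCT1), which carries lactate and pyruvate both ways, went from 251, 261 and 263 CPM to 92.8, 92.5 and 99.5 CPM in WT and from 271, 262 and 267 CPM to 219, 204 and 234 CPM in iNOS KO. The WT fall of Slc16a1 was thus −1.44 ± 0.06 and the iNOS KO fall −0.29, with stimulated iNOS KO cells higher by 1.21 ± 0.06 (adjusted p = 1.2e-10). For Slc16a3 the stimulated difference was −0.50.

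The mitochondrial pyruvate carrier needs both its subunits. Mpc1 was at 5.18, 4.73 and 5.11 CPM in unstimulated and 14.2, 9.99 and 11.2 CPM in stimulated WT cells, and at 6.64, 6.27 and 4.54 CPM and 9.26, 11 and 12.3 CPM in iNOS KO cells. It rose in both genotypes (1.24 and 0.90), and the stimulated ranges overlapped (−0.12). Mpc2 passed the test only as lower in stimulated iNOS KO cells (−0.24), which failed without any of 4 libraries.

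The PDH complex is built from E1 (Pdha1, Pdhb), E2 (Dlat), E3 (Dld) and the E3-binding protein Pdhx. In WT cells 3 of the 5 subunits, Pdha1, Dlat and Pdhx, fell with stimulation. These 3 also lay above WT in stimulated iNOS KO cells, a comparison that shares the stimulated WT libraries and is not independent of the first. Pdha1, the subunit that the kinases phosphorylate, was at 80.8, 80.8 and 79.2 CPM in unstimulated and 50.9, 60.7 and 53.8 CPM in stimulated WT cells, and at 83.4, 74.4 and 76.1 CPM and 74.0, 70.5 and 76.3 CPM in iNOS KO cells. Its stimulation changes were −0.54 in WT and −0.08 in iNOS KO, the latter not passing the test, and the stimulated genotypes differed by 0.42. Dlat, the acetyltransferase core, was at 122, 127 and 127 CPM in unstimulated and 76.1, 72.3 and 77.4 CPM in stimulated WT cells, and at 126, 134 and 133 CPM and 124, 119 and 131 CPM in iNOS KO cells. All 3 stimulated WT libraries were below all 9 others for Dlat, and the stimulated difference was 0.73. Pdhx was at 50.7, 49.6 and 52.5 CPM in unstimulated and 24.2, 28.2 and 27.7 CPM in stimulated WT cells, and at 54.3, 54.1 and 55.3 CPM and 40.9, 45.5 and 39.5 CPM in iNOS KO cells. It fell in WT (−0.93) and in iNOS KO (−0.38), and the stimulated difference was 0.65. Pdhb, the E1 beta subunit, was at 110, 112 and 123 CPM in unstimulated and 96.7, 106 and 109 CPM in stimulated WT cells, and at 110, 112 and 108 CPM and 91.8, 95.7 and 91.9 CPM in iNOS KO cells. Its fall passed the test in iNOS KO (−0.24) and not in WT (−0.15). Dld, which other dehydrogenase complexes share, was at 143, 148 and 138 CPM in unstimulated and 123, 100 and 106 CPM in stimulated WT cells, and at 151, 136 and 150 CPM and 120, 67.2 and 142 CPM in iNOS KO cells. Stimulated iNOS KO replicate B stood apart at 67.2 CPM, and without it Dld was higher in stimulated iNOS KO than WT (0.25, adjusted p = 0.0074), against 0.00 with it. The stimulation change of Dld in iNOS KO was −0.41 (adjusted p = 0.059), and −0.44 (adjusted p = 0.026) with the replicate letter as a block.

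PDH kinases differed in opposite directions between the stimulated genotypes, with Pdk1 lower and Pdk3 higher in iNOS KO than in WT cells. Pdk1, the kinase known to be induced by hypoxia-inducible factors, was at 69.4, 65.4 and 72.4 CPM in unstimulated and 52.8, 56.2 and 54.6 CPM in stimulated WT cells. It was at 69.5, 64.6 and 71.4 CPM in unstimulated and 22.7, 23.1 and 22.1 CPM in stimulated iNOS KO cells. Stimulated iNOS KO libraries thus lay below all others, and the fall was −1.60 in iNOS KO against −0.34 in WT (genotype difference in stimulated cells −1.27 ± 0.07, adjusted p = 3.2e-10). Pdk3 was at 33.5, 34.2 and 33.8 CPM in unstimulated and 9.83, 11.5 and 10.7 CPM in stimulated WT cells. It was at 33.4, 38.2 and 34.5 CPM in unstimulated and 35.1, 35.4 and 33.3 CPM in stimulated iNOS KO cells. For Pdk3 the stimulated WT libraries lay below all others, with a WT fall of −1.67 ± 0.09, an iNOS KO change of −0.03 that did not pass the test, and a stimulated difference of 1.70 ± 0.09 (adjusted p = 9.2e-11). Pdk2 rests on few reads, with 14, 20 and 21 in unstimulated WT, 19, 27 and 20 in stimulated WT, 27, 26 and 18 in unstimulated iNOS KO and 8, 3 and 8 in stimulated iNOS KO libraries. It was lower in stimulated iNOS KO than WT cells (−1.86 ± 0.37, adjusted p = 0.00051).

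Of the 2 phosphatases that reactivate the PDH complex, Pdp2 was at 34.5, 32.5 and 34.3 CPM in unstimulated and 4.57, 4.12 and 6.03 CPM in stimulated WT cells. It was at 35.7, 31.6 and 34.3 CPM in unstimulated and 13.8, 16.2 and 15.8 CPM in stimulated iNOS KO cells. Both genotypes fell, WT further (−2.78 ± 0.12 against −1.15), and the stimulated ranges did not overlap (1.63 ± 0.13, adjusted p = 1.4e-08). Pdp1, the calcium-sensitive phosphatase, went from 8.97, 9.67 and 9.22 CPM to 19.9, 23.4 and 22.7 CPM in WT and from 9.15, 7.61 and 9.81 CPM to 24.7, 17.7 and 29.5 CPM in iNOS KO. It rose in both (1.24 and 1.44), with overlapping stimulated ranges. The genotype difference of Pdp1 in stimulated cells was 0.13, and 0.30 (adjusted p = 0.021) without stimulated iNOS KO replicate B.

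Shares of isozymes were computed from levels per kilobase of gene length, since read counts alone do not compare genes. Within the Pdk family of BMDM-labelled cells, Pdk1 held 39.6% ± 1.40 (SD, n = 3) of the summed level in unstimulated WT, 60.2% ± 1.36 in stimulated WT, 38.4% ± 2.76 in unstimulated iNOS KO and 17.6% ± 0.207 in stimulated iNOS KO cells. Pdk3 held 59.0%, 35.7%, 60.0% and 81.6% in the same order. Stimulation thus moved the kinase make-up towards Pdk1 in WT and towards Pdk3 in iNOS KO cells, while the summed level was 22.4, 11.7, 23.0 and 16.5 CPM per kilobase. Pfkfb3 went from 30.3% of the Pfkfb2, Pfkfb3 and Pfkfb4 sum to 83.4% in WT and from 30.8% to 49.2% ± 4.49 in iNOS KO cells. Slc16a1 went from 46.3% of the 2 monocarboxylate transporters to 14.9% in WT and from 49.3% to 36.6% in iNOS KO cells. Among hexokinases Hk3 was the major form in every group, at 64.8% and 72.6% in WT and 62.8% and 80.1% in iNOS KO cells before and after stimulation, and Hk2 fell from 16.0% to 8.16% in iNOS KO cells while it was at 15.7% and 16.5% in WT. Pfkl was the largest phosphofructokinase share in 3 groups (58.4%, 55.9% and 55.1%) and Pfkp in stimulated iNOS KO cells (51.3%). Eno2 reached 5.18% of the Eno1 and Eno2 sum in stimulated WT cells, a share made uncertain by the reads of the copy Eno1b, which that sum leaves out. These shares were given no test.

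**Figure D3:**
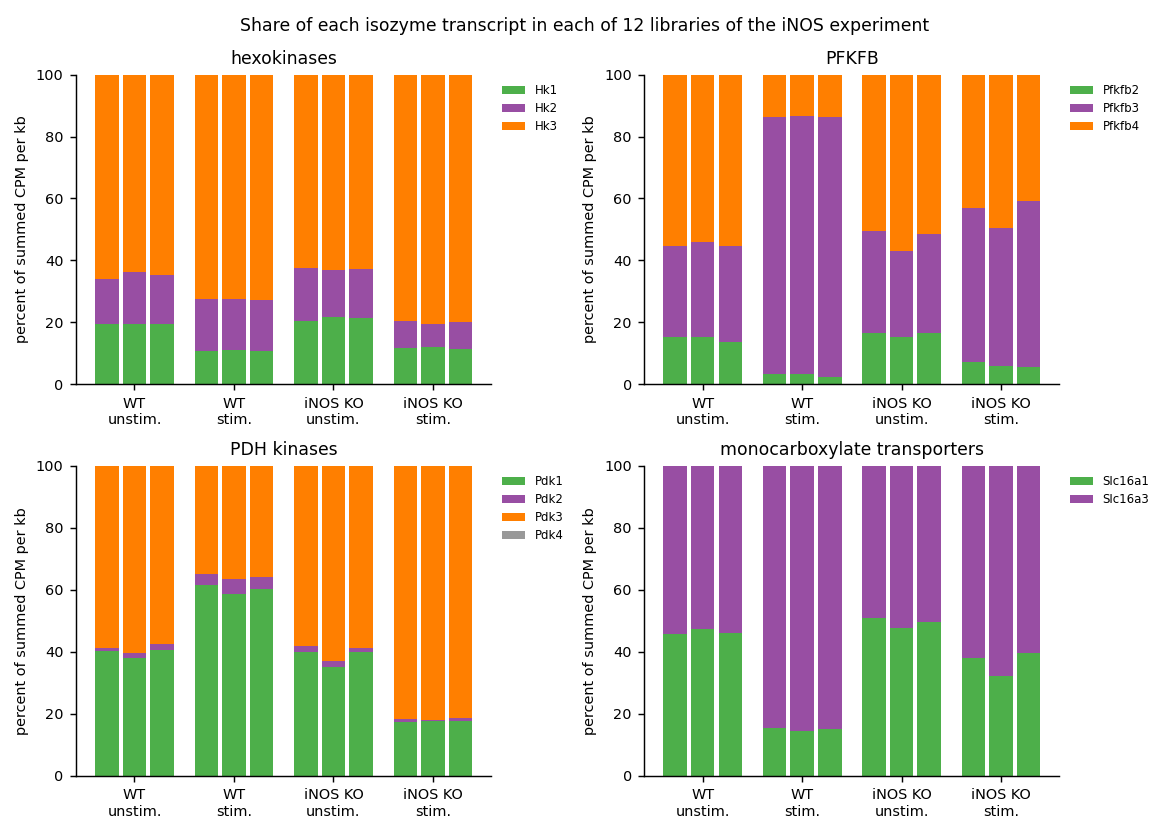
Share of each isozyme (y axis, percent of the summed CPM per kilobase of its family) in the 12 libraries of the iNOS experiment, each stacked bar 1 library and each colour 1 gene, for hexokinases, Pfkfb enzymes, PDH kinases and monocarboxylate transporters. The Pdk1 share runs from 17.6% in stimulated iNOS KO to 60.2% in stimulated WT cells.

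Outside the 40 members, 26 of 43 further glycolysis and pyruvate genes could be tested, of which 12 lay higher and 7 lower in iNOS KO than in WT cells once stimulated, and their median was 0.14 on the log2 scale. The share over all genes in this comparison, 24.2% in each direction, is the background for this list and for the next lists. Those over 2-fold were Bsg (−1.41), the chaperone that takes Slc16a1 and Slc16a3 to the membrane, the phosphoglucomutase gene Pgm1 (−1.47), Slc2a4 (−1.79), Slc2a8 (−1.38), Pfkfb1 (1.02), Eno3 (1.58), Slc16a8 (3.14) and Pck2 (1.17). Of 19 tested regulators of these pathways, 9 were higher and 7 lower. The mRNA of Hif1a, the hypoxia-inducible factor subunit of activated macrophages, did not pass the test between stimulated genotypes (−0.08) nor with stimulation in WT (0.14), whereas Epas1, which encodes HIF-2 alpha, was higher in stimulated iNOS KO by 3.47. Egln1, an oxygen sensor that is itself hypoxia-inducible, was lower (−1.21), as were the glucose-responsive Txnip (−2.62) and Arrdc4 (−1.14), while Myc (1.16) and Trp53 (1.44) were higher. A list of 18 hypoxia-responsive genes outside glycolysis rose in 17 of 18 cases in WT (median 2.09), where 32.4% of all genes rose. After stimulation all 18 lay lower in iNOS KO than in WT cells (median −1.77), 15 of them over 2-fold, such as Bnip3 (−2.80), Ndrg1 (−2.41) and Vegfa (−2.39). This list was chosen with earlier results of these data known. The study's supplement also lists Bnip3, Ero1a and Kdm3a among the top decreases in stimulated iNOS KO cells. The counts of the list are thus a description and not a test. In RAW264.7 cells, 8 of 31 tested further glycolysis genes rose and 14 fell with stimulation, 8 of 20 regulators rose and 7 fell, and 10 of 17 hypoxia-responsive genes rose and 0 fell, where 26% of all genes rose and 25.4% fell. The share of further glycolysis genes that rose was thus near that background. None of these genes passed the test between stimulated Akr1a1 KO and WT cells.

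In RAW264.7 cells stimulation raised Slc2a1, the 3 hexokinase genes, Pfkfb3 and Eno2 and lowered 4 of the 5 PDH subunits over the mean of both genotypes, while most other glycolytic enzymes did not pass the test. Over the mean of both genotypes, 4 libraries against 4, 9 members rose and 13 fell, where 26% of the 19569 genes tested rose and 25.4% fell, so the members' share of rises was no higher than that of all genes. The median of the members was −0.18, against −0.01 over all genes tested, and it was −0.07 without stimulated WT replicate A and −0.12 without stimulated Akr1a1 KO replicate A. With total counts the split was 7 higher and 18 lower, the members' median −0.38 and the median of all genes −0.20. In WT alone 7 rose and 11 fell (18.5% and 19.2% of all genes), and in Akr1a1 KO alone 6 rose and 12 fell (19.8% and 19.4%), or 5 and 17 with total counts. Without the replicate B libraries of the unstimulated groups, whose titles and treatment fields disagree, the mean comparison gave 7 higher and 10 lower and the WT one 4 higher and 8 lower. Nos2 in these 2 libraries was at 30.7 CPM (WT) and 38.1 CPM (Akr1a1 KO), against 4155 to 8806 CPM in the 4 stimulated libraries.

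**Figure D4:**
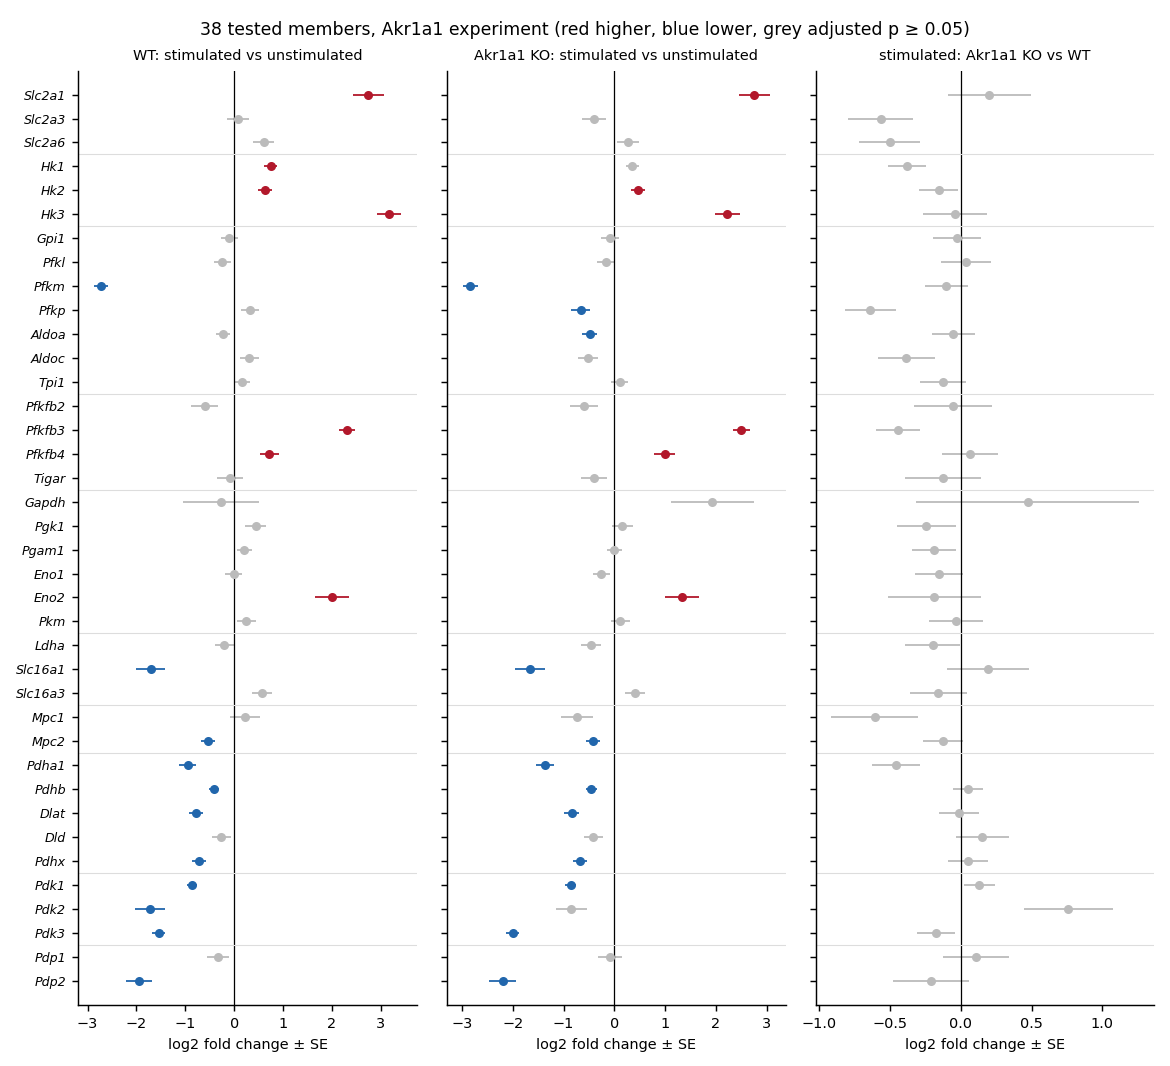
Log2 fold changes (x axis, with bars of 1 standard error) of the tested members (y axis, grouped by role) in RAW264.7 cells, for stimulation in each genotype and for Akr1a1 KO against WT in stimulated cells, 2 libraries per group, coloured by direction and grey where the adjusted p was 0.05 or more. Stimulation changes reach 3.18 for Hk3 and −2.72 for Pfkm in WT, and no genotype difference passed the test.

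Slc2a1 was at 335 and 307 CPM in unstimulated and 1426 and 2896 CPM in stimulated WT RAW264.7 cells, and at 368 and 367 CPM and 2221 and 2748 CPM in Akr1a1 KO cells. The stimulated libraries were all far above the unstimulated ones and the genotypes overlapped (mean stimulation change 2.75 ± 0.22). Slc2a6 was at 92.1 and 124 CPM, then 188 and 142 CPM in WT, and 106 and 87.0 CPM, then 133 and 99.7 CPM in Akr1a1 KO cells. Its ranges overlapped and its mean change of 0.44 (adjusted p = 0.040) failed without any of 5 of the 8 libraries. Hk3 went from 99.4 and 85.8 CPM to 997 and 675 CPM in WT and from 173 and 174 CPM to 664 and 959 CPM in Akr1a1 KO cells (mean change 2.70). Unstimulated Akr1a1 KO libraries were above WT ones for Hk3, by 0.91 ± 0.23, which did not pass the test (adjusted p = 0.22). Hk1 went from 417 and 418 CPM to 653 and 750 CPM in WT and from 450 and 392 CPM to 533 and 544 CPM in Akr1a1 KO. Hk2 went from 244 and 263 CPM to 369 and 420 CPM in WT and from 249 and 263 CPM to 322 and 386 CPM in Akr1a1 KO. For both of them every stimulated library was above every unstimulated one, with mean changes of 0.55 each.

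Pfkfb3 was at 95.4 and 101 CPM in unstimulated and 411 and 557 CPM in stimulated WT RAW264.7 cells, and at 64.1 and 61.7 CPM and 360 and 352 CPM in Akr1a1 KO cells. Akr1a1 KO libraries were below the WT libraries of both states, but the differences of −0.64 ± 0.16 unstimulated (adjusted p = 0.20) and −0.45 stimulated (adjusted p = 0.35) did not pass the test. Pfkfb4 went from 26.7 and 19.0 CPM to 42.1 and 32.8 CPM in WT and from 20.5 and 19.0 CPM to 38.5 and 39.7 CPM in Akr1a1 KO (mean change 0.85). Pfkfb2 went from 18 and 17.3 CPM to 13.7 and 9.62 CPM in WT and from 13.7 and 20.0 CPM to 9.18 and 13.2 CPM in Akr1a1 KO, and its mean change of −0.60 failed without any of 5 libraries. The 3 fructose 2,6-bisphosphate synthases thus split, with Pfkfb3 and Pfkfb4 higher and Pfkfb2 lower after stimulation. Pfkm fell most of all members, from 52.7 and 48.1 CPM to 8.18 and 7.09 CPM in WT and from 51.0 and 50.7 CPM to 7.17 and 7.03 CPM in Akr1a1 KO (−2.78). Pfkp was at 705 and 730 CPM, then 734 and 1068 CPM in WT, and 903 and 930 CPM, then 562 and 595 CPM in Akr1a1 KO. It fell in Akr1a1 KO (−0.66, adjusted p = 0.020, lost without any of 4 libraries) and not in WT (0.33), but the difference between these responses, −0.99 ± 0.26, did not pass the test (adjusted p = 0.72). The ranges of the stimulated genotypes were apart for Pfkp. Aldoa went from 1729 and 1876 CPM to 1453 and 1627 CPM in WT and from 2097 and 2064 CPM to 1595 and 1371 CPM in Akr1a1 KO (mean −0.36, lost without any of 4 libraries). Eno2 went from 98.3 and 115 CPM to 280 and 575 CPM in WT and from 163 and 135 CPM to 293 and 458 CPM in Akr1a1 KO (mean change 1.67). Gapdh was again erratic, at 41.9 and 221 CPM, then 57.5 and 161 CPM in WT, and 36.6 and 43.3 CPM, then 231 and 72.8 CPM in Akr1a1 KO.

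**Figure D5:**
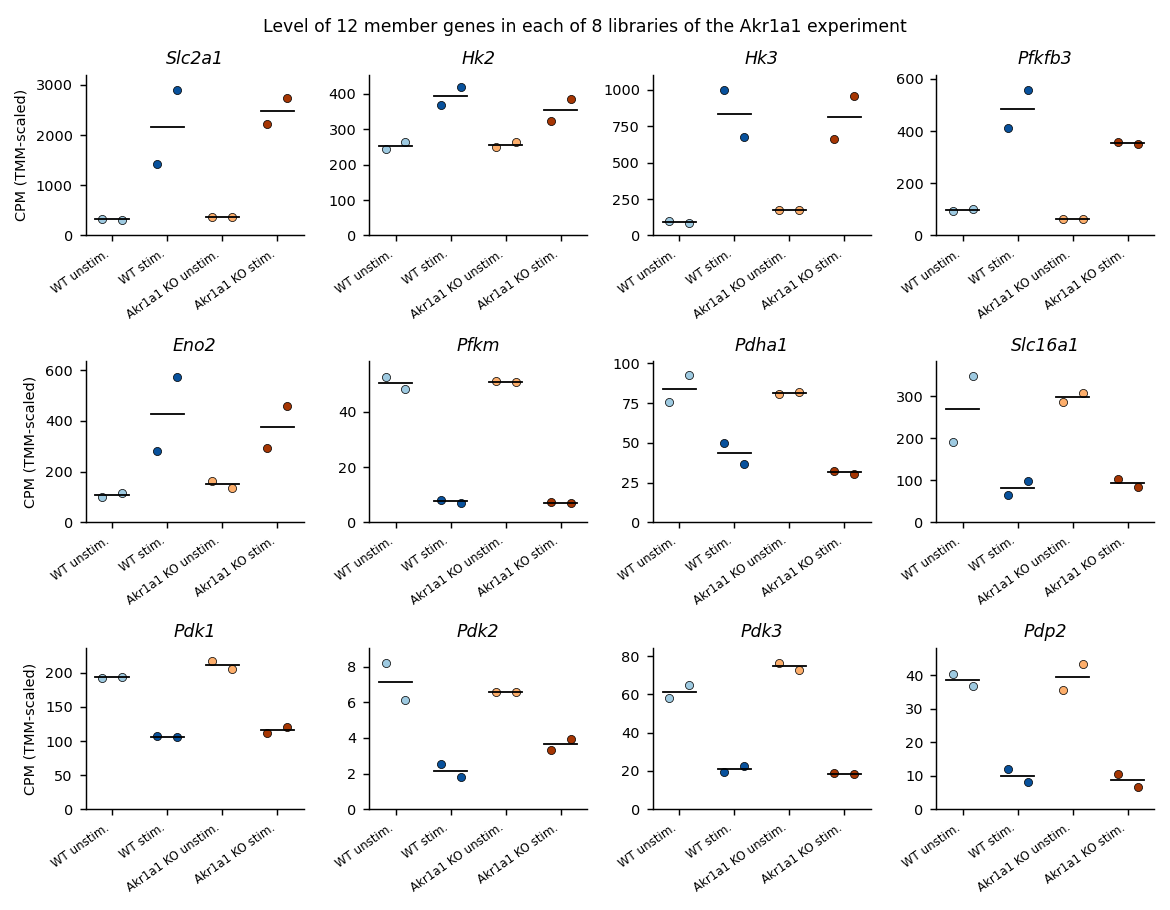
Levels of 12 members in the 8 RAW264.7 libraries (y axis, CPM from 0; x axis, the 4 groups), each point a library and each horizontal bar the mean of 2. Slc2a1, Hk3, Pfkfb3 and Eno2 are higher and Slc16a1, Pdk3 and Pdp2 lower in all stimulated libraries than in all unstimulated ones.

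Among the lactate genes of RAW264.7 cells, Ldha was at 2664 and 3224 CPM, then 2160 and 2972 CPM in WT, and 3005 and 3175 CPM, then 2236 and 2236 CPM in Akr1a1 KO cells (mean change −0.33, adjusted p = 0.073). Its WT ranges overlapped, unlike those of the BMDM-labelled WT cells, but the 2 experiments are separate tables and were not tested against each other. Slc16a1 fell from 190 and 348 CPM to 65.4 and 99.2 CPM in WT and from 286 and 309 CPM to 102 and 85.3 CPM in Akr1a1 KO (mean −1.69). Slc16a3 went from 425 and 510 CPM to 546 and 836 CPM in WT and from 468 and 467 CPM to 629 and 607 CPM in Akr1a1 KO (mean 0.48, lost without any of 3 libraries). Mpc2 went from 40.8 and 37.9 CPM to 28.4 and 26.0 CPM in WT and from 31.2 and 35.8 CPM to 25.9 and 24.0 CPM in Akr1a1 KO (mean −0.48).

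In RAW264.7 cells 4 of the 5 PDH subunits fell with stimulation in both genotypes. Pdha1 went from 75.5 and 92.4 CPM to 50.1 and 36.9 CPM in WT and from 81.0 and 82.1 CPM to 32.5 and 30.6 CPM in Akr1a1 KO (mean −1.16). Dlat went from 119 and 122 CPM to 79.9 and 61.1 CPM in WT and from 123 and 127 CPM to 72.6 and 67.0 CPM in Akr1a1 KO (mean −0.81). For both, no stimulated library reached an unstimulated one. Pdhx went from 51.6 and 43.4 CPM to 28.9 and 28.8 CPM in WT and from 48.1 and 48.0 CPM to 32.0 and 27.8 CPM in Akr1a1 KO (mean −0.70). Pdhb went from 123 and 123 CPM to 95.0 and 90.5 CPM in WT and from 133 and 130 CPM to 96.6 and 95.5 CPM in Akr1a1 KO (mean −0.43). Dld was at 174 and 172 CPM, then 151 and 137 CPM in WT, and 173 and 255 CPM, then 144 and 176 CPM in Akr1a1 KO, with a mean change of −0.34 (adjusted p = 0.065). Of the 3 tested kinases, all fell in WT and in the mean of genotypes, and Pdk1 and Pdk3 also in Akr1a1 KO cells alone, where Pdk2 did not pass the test (−0.85, adjusted p = 0.055). Pdk1 went from 193 and 194 CPM to 107 and 106 CPM in WT and from 217 and 206 CPM to 112 and 121 CPM in Akr1a1 KO (mean −0.86). Pdk3 went from 58.0 and 64.7 CPM to 19.4 and 22.6 CPM in WT and from 76.5 and 72.8 CPM to 18.9 and 18.3 CPM in Akr1a1 KO (mean −1.78). Every stimulated library was below every unstimulated one for both kinases. The low Pdk2 went from 8.21 and 6.11 CPM to 2.53 and 1.80 CPM in WT and from 6.60 and 6.61 CPM to 3.35 and 3.96 CPM in Akr1a1 KO (mean −1.29). Pdk1 held 48.7% of the summed Pdk level per kilobase in unstimulated and 60.7% in stimulated WT cells, and 46.5% and 64.0% in Akr1a1 KO cells. Pdp2 fell from 40.5 and 36.9 CPM to 12.0 and 8.05 CPM in WT and from 35.6 and 43.6 CPM to 10.5 and 6.72 CPM in Akr1a1 KO (mean −2.08), while Pdp1 did not pass the test.

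No member differed between Akr1a1 KO and WT RAW264.7 cells by edgeR's quasi-likelihood test in unstimulated cells (0.583% of all genes called), in stimulated cells (0.286%) or in the response to stimulation (0.0204%). At an unadjusted p under 0.05 there were 2, 7 and 4 members, and DESeq2 called 2, 1 and 1. With 2 libraries a group the standard errors of the log2 differences in stimulated cells ran from 0.10 to 0.79 with a median of 0.19. Differences several times their standard error also did not pass the test, such as those of Hk3 and Pfkfb3 in unstimulated cells given above. Differences of that order are therefore not excluded by these counts. The stimulated differences themselves ran from −0.64 for Pfkp to 0.76 for Pdk2. Since the Akr1a1 KO libraries still held Akr1a1 reads, these comparisons are, at the level of RNA, between libraries with more and less Akr1a1. The study's methods say that the clones were checked for the knockout by immunoblot of the protein, which RNA reads do not measure.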

How the data were processed

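Poly(A)-enriched RNA of 20 cultures was sequenced, 12 in the iNOS and 8 in the Akr1a1 experiment. Per the labels and the study's methods, the authors removed reads with adaptors, many undetermined bases or low quality, aligned the rest with STAR to mm10 and deposited raw read counts per gene, 1 table per experiment; tool versions, strand setting and the treatment of reads that match several places are not given in the sources used here. The study tested with DESeq2. Here genes with at least 10 counts over an experiment were fitted with edgeR 4.0.16 (TMM, 1 mean per group, quasi-likelihood test, 2-sided, R 4.3.3), with all groups of an experiment in 1 fit and Benjamini-Hochberg adjustment over all genes tested, and called at an adjusted p under 0.05. CPM are counts scaled to a common library total with the TMM factors. Groups came from the labels, all columns of per-sample values were used (0 left out), and depth was 11876719 to 44583327 counts per library. More reads give less counting error, and genes with few reads, such as Pdk2, are less precise. The pipeline was run on simulated counts with known changes in the stimulated KO group alone. These counts held no stimulation response, so that run cannot speak to the choice of scaling.

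Values per library are given for members with an absolute log2 fold change over 1 and an adjusted p under 0.05 in any BMDM-labelled comparison, for members called in any RAW264.7 comparison, and for Gapdh, Ldha and the 5 PDH subunits. Outside the members, Nos2, Akr1a1 and genes of the further glycolysis and regulator lists over 2-fold in stimulated iNOS KO against WT are named, and Hif1a, Pycard and the hypoxia-responsive examples were chosen after their values were seen. The members and lists were chosen with earlier results of these data known. Alternatives were DESeq2 1.42.0, its size factors, total counts, other filters, protein-coding genes alone, only the groups compared, replicate blocks, and leaving out each library or both libraries whose labels disagree. Same-letter libraries of unstimulated and stimulated iNOS KO cells deviated together (correlations over genes 0.407, 0.497 and 0.116). Those of stimulated WT and stimulated iNOS KO cells gave 0.48, 0.402 and −0.151. In RAW264.7 WT cells, unstimulated and stimulated libraries of the same letter correlated at 0.426. The letters entered as a block only in an alternative fit, and the main values come from the fit without it. No shared animal or day is stated for libraries of the same letter. Promoters are RefSeq sequences (GRCm38.p6), found for 38 of 40 members.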

Additional observations from a re-analysis of the deposited data

Results flagged for a closer look

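The response to stimulation differed between iNOS KO and WT cells for 26 members, by edgeR's test of the genotype by stimulation interaction. Values are the log2 response of iNOS KO minus that of WT cells. In glucose uptake and phosphorylation it was −1.31 for Slc2a1, 0.33 for Slc2a6, −0.47 for Hk1, −1.50 for Hk2 and −0.27 for Hk3. In upper glycolysis it was −0.81 for Pfkl, 0.44 for Aldoa, −0.72 for Aldoc and −0.61 for Tpi1, and among enzymes of fructose 2,6-bisphosphate −0.80 for Pfkfb2, −2.51 for Pfkfb3 and 0.36 for Tigar. Lower glycolysis gave −0.89 for Pgk1, −0.59 for Pgam1, −1.87 for Eno2 and −0.42 for Pkm. The lactate genes gave −0.57 for Ldha, 1.16 for Slc16a1 and −0.38 for Slc16a3. The PDH subunits gave 0.46 for Pdha1, 0.66 for Dlat and 0.55 for Pdhx, the kinases −1.26 for Pdk1, −2.07 for Pdk2 and 1.63 for Pdk3, and the phosphatase Pdp2 1.63. For Hk3, Tigar and Slc2a6 the call was lost without any of 9, 7 and 2 of the 12 libraries. In RAW264.7 cells no member differed in this way between Akr1a1 KO and WT by edgeR, where 4 had an unadjusted p under 0.05 and DESeq2 called 1. Groups of 3 and 2 libraries are too small for a test of single outlying libraries.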

How the results depend on the processing

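Members changed by stimulation numbered 30 in WT and 31 in iNOS KO cells, and 32 differed between the stimulated genotypes; leaving out 1 library gave 29 to 32, 27 to 31 and 29 to 33, with 10 to 12 over 2-fold and 23 to 30 for the interaction. Requiring 2-fold left 15, 10 and 11 of them, 9 for the interaction, and 1 in unstimulated iNOS KO against WT; without that limit the 11 became 32. The count of 2 in unstimulated cells was 1 with total counts, filterByExpr or protein-coding genes alone, 5 with no filter, 10 with only the groups compared, and 1 to 10 on leaving out 1 library. In RAW264.7 cells, stimulation counts of 18 (WT), 18 (Akr1a1 KO) and 22 (mean) were 9, 9 and 10 with the 2-fold limit, and 15 to 22, 12 to 24 and 18 to 25 on leaving out 1 library. For Akr1a1 KO against WT, unstimulated, the count of 0 was 2 by DESeq2, 3 with no filter, 1 with only the groups compared and 0 to 1 on leaving out 1 library (1 without either stimulated WT library). Stimulated it was 1, 2 with no filter, and 0 to 1 likewise, and for the interaction 1, 3 and 0 to 0. Without TMM, Aldoa (−0.44) and Mpc2 (−0.30) changed sign in WT stimulation, and in iNOS KO stimulation Gpi1 (−0.0096), Tpi1 (−0.19), Pgam1 (−0.11), Eno1 (−0.18), Pkm (−0.0494) and Ldha (−0.33) did; this scaling lowers all stimulated values.

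With the replicate letter as a block, BMDM-labelled counts were 31, 31, 2 and 32 for stimulation in WT and iNOS KO and for the genotypes unstimulated and stimulated, 11 over 2-fold and 28 for the interaction. Besides Gapdh and Dld it changed no other call in the iNOS KO stimulation comparison. In no comparison is it stated that libraries share more than a letter. In RAW264.7 cells the block gave 19, 17 and 23 for stimulation and 0 for each genotype comparison. Taking a letter within a genotype as the same clone in both states, which is not stated, gave 22, 25 and 26 for stimulation. The letters of the stimulated genotypes correlated at −0.162, and the crossed pairing, chosen after seeing the data, gave 21, 19 and 23 for stimulation and 1, 0 and 0 for the genotype comparisons. Depth limits Pdk2 in BMDM-labelled cells, with 3 to 27 reads per library.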
